A study of Mus musculus with 6 samples.

Results

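The genes described here are mostly peptide hormones and granule proteins of enteroendocrine cells, the scattered hormone-producing cells of the gut epithelium. Tph1 and Gch1 among them are enzymes, neither hormones nor granule proteins. All were chosen by symbol from a list of 10 genes: Gip, Cck, Sct, Gcg, Sst, Pyy, Chga, Chgb, Tph1 and Gch1. The array named 9 of them with 14 probe sets, out of 8251 genes named in all, and Pyy was not among the genes named. Of the 14 probe sets, 11 were bright enough to be tested, and these covered all 9 genes.

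RNA came from the whole small intestine of 6 mice 40 days old, congenic on the black6 background, with 1 mouse on each Affymetrix array. The 3 control mice were Cftr +/+ and the 3 null mice Cftr -/-, and mice of both groups were given the liquid diet Peptamen from day 10 against blockage of the gut. Each group had 2 males and 1 female; control replicate 3 and null replicate 2 were the females. Cftr encodes an anion channel of epithelial cells that is lost in cystic fibrosis. The labels do not say how the allele was made or whether mice were littermates. The p-values set the difference between groups against the spread among these 6 animals, with a variance estimate that also draws on the other probe sets tested.

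Enteroendocrine cells sense nutrients in the lumen and release peptides or serotonin from dense-core granules into blood or onto nearby nerves. Which hormone a cell makes varies along the gut: Gip, Cck and Sct are products mainly of the proximal small intestine, and Gcg and Pyy of the distal part. Chromogranins pack the granules of nearly all of these cells, and Tph1 and Gch1 serve the synthesis of serotonin, Tph1 as the enzyme and Gch1 as the source of its cofactor tetrahydrobiopterin.

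A single member passed the test between genotypes: Gch1 rose in null mice. Of the other 8 genes, Gip, Sst, Chga and Chgb were lower in every null mouse than in every control mouse, at 56.4% to 64.4% of the control level, and did not pass. By the brightest probe set of each gene, Cck, Sct, Tph1 and Gcg had groups that overlapped; those of a second Sct probe set were apart, nulls lower, without passing. RNA of the whole organ was measured, so that fewer cells of a type and less RNA per cell cannot be told apart.

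The stretches of DNA before the start sites of the 5 genes whose groups were apart are shown here, because 1 of them went up and 4 lay lower in the same mice. Each line gives the 250 bases before a gene's start from RefSeq (GRCm38.p6), 5′ to 3′ on the strand of the gene. Capitals mark matches on either strand to TGACG (the core of the cyclic AMP response element), CAGNTG (an E-box of the kind bound by NeuroD factors), CCAAT or TATAAA; adjacent or overlapping matches run together.
Gch1, chr14:47189414-47189663, minus strand: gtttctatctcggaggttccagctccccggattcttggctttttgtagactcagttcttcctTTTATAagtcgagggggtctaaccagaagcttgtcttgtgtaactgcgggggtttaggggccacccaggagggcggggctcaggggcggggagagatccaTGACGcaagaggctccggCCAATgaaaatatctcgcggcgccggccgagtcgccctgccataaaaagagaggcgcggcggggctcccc
Chga, chr12:102554691-102554940, plus strand: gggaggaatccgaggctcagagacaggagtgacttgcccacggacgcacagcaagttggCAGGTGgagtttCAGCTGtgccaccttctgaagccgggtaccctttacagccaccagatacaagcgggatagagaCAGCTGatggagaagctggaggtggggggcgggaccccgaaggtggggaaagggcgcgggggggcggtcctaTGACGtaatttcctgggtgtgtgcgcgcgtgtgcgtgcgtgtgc
Chgb, chr2:132781392-132781641, plus strand: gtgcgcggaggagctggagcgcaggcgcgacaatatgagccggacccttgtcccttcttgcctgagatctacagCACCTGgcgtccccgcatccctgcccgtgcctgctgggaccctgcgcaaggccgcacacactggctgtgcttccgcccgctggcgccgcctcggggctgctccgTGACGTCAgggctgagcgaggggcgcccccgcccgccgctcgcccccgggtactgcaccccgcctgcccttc
Sst, chr16:23890845-23891094, minus strand: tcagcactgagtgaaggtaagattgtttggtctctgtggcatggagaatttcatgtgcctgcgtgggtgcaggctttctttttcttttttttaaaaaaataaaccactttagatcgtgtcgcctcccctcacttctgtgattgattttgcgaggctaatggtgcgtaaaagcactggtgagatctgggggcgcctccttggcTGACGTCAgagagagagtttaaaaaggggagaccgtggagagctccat
Gip, chr11:96024295-96024544, plus strand: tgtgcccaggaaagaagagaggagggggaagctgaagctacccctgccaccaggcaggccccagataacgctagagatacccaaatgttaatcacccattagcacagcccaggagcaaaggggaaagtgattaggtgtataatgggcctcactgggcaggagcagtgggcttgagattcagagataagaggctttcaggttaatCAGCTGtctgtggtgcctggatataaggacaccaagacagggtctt

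RefSeq windows were found for all 9 genes on the array. TGACG occurred in 6 of the 9 (Cck, Sst, Chga, Chgb, Tph1 and Gch1), and in 17.8% of 32851 mouse promoter windows of the same length. In Sst and Chgb the motif lay on both strands in overlapping matches, 48 to 41 and 72 to 65 bases before the start. In Chga it lay 44 to 40 bases and in Gch1 88 to 84 bases before the start. CAGNTG occurred in 6 of 9 (Gip, Cck, Sct, Gcg, Chga and Chgb) against 44.8% of all windows, CCAAT in 2 of 9 against 33.8%, and TATAAA in 3 of 9 against 12.4%. The Gch1 window held 1 match to each motif except the E-box, whereas the single match in that of Gip was an E-box. These are matches of letters, and binding was not measured.

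Intensities are in arbitrary units, are listed in the order of replicates 1 to 3 of a group and were tested as log2(intensity + 12) with limma, p-values being adjusted by the Benjamini-Hochberg method over all 7601 probe sets tested. The 2%-trimmed mean was 500.3 on each array, and RNA quality, read as actin signal at the 3′ end over that at the 5′ end, ranged from 1.12 to 1.20. The Cftr transcript was between 295.6 and 368.5 in null mice and between 801.6 and 1017.5 in controls. Over all probe sets tested, 1.13% were called higher and 1.87% lower at an adjusted p under 0.05. All 3 null mice lay below all 3 controls in 10.8% of them and above in 13.1%.

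Gch1 encodes GTP cyclohydrolase, which makes the entry step of tetrahydrobiopterin synthesis. Its intensity was 343.1, 389.8 and 377.4 in the controls and 682.6, 578.2 and 852.6 in the nulls. Every null mouse lay above every control, and the lowest null value was that of the female. The null mean was 704.5 ± 138.5 (SD, n = 3), against a control mean of 370.1 ± 24.2 (SD, n = 3). The rise was 1.85-fold, with a 95% confidence interval of 1.43 to 2.40, or 0.89 on the log2 scale (SE 0.16, limma adjusted p = 0.0309). It was the 1 of 9 member genes called higher, beside 1.13% of all probe sets. The call was lost when any 1 of the 3 controls or of null replicates 1 and 3 was left out (adjusted p from 0.0633 to 0.117), as with males only (adjusted p = 0.0668) and without a variance trend (adjusted p = 0.0539). It held when null replicate 2 was left out (adjusted p = 0.0268).

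**Figure D1:**
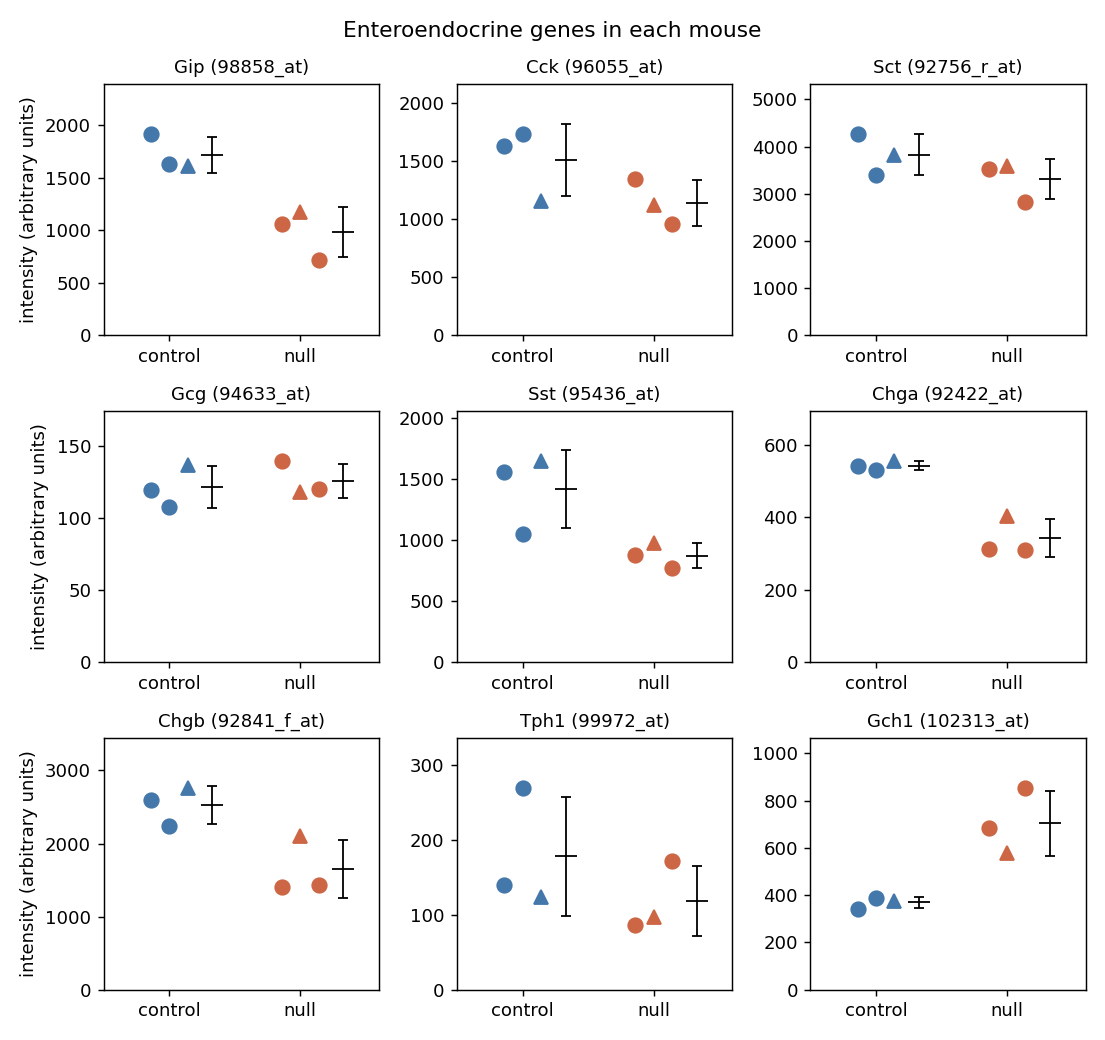
Intensity in arbitrary units (y axis, linear, from 0) of the brightest tested probe set of each of 9 genes in 3 control and 3 null mice; circles are males, triangles females, and the bar beside each group is the mean ± SD. The 3 null mice lie above the controls in Gch1 and below them in Gip, Sst, Chga and Chgb, and the female is the highest null mouse in each of these 4.

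Chromogranin A, Chga, is the acidic granule protein most used as a marker of enteroendocrine cells. Its brighter probe set read 541.3, 530.6 and 554.5 in the controls and 313.8, 404.7 and 310.4 in the nulls. The controls were close together and all nulls lay below them. The control mean was 542.1 ± 11.97 (SD, n = 3) and the null mean 343.0 ± 53.5 (SD, n = 3), a level of 63.6% of control (log2 change -0.65, SE 0.14, limma adjusted p = 0.0550). Chga passed in 3 of 16 alternative fits: under quantile normalization (adjusted p = 0.0492), with the stricter filter on dim probe sets (adjusted p = 0.0446) and without the female null mouse, replicate 2 (adjusted p = 0.0399). In the fits that left out any 1 of the other mice the adjusted p was 0.104 to 0.170, and with males only it was 0.113. A second, dimmer Chga probe set read 225.4, 178.3 and 270.6 in controls and 65.3, 163.2 and 129.5 in nulls. Its groups were apart in the same direction, with a wider spread (log2 change -0.91, SE 0.33, adjusted p = 0.205). The name of this dimmer probe set marks possible cross-hybridization.

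Chromogranin B, Chgb, shares the granules of Chga. Its intensity was 2592.8, 2235.8 and 2755.4 in the controls and 1400.4, 2109.3 and 1434.8 in the nulls. The groups were apart, but the female null mouse came close to the lowest control. Its level in nulls was 64.4% of control (log2 change -0.63, SE 0.18, limma adjusted p = 0.118). Without the female, null replicate 2, Chgb passed at a log2 change of -0.82 (adjusted p = 0.0398), the 1 of 16 alternative fits in which it did. Without any 1 of the other mice the adjusted p was 0.124 to 0.309. The name of this probe set also marks possible cross-hybridization, and a second one for Chgb, between 15.2 and 48.7, was too dim to be tested.

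Gip encodes the incretin of the K cells of the proximal gut, which is released after a meal and raises insulin secretion. Its intensity was 1913.8, 1629.7 and 1606.4 in the controls and 1056.3, 1170.4 and 714.4 in the nulls. All null mice lay below all controls, null replicate 3 furthest. The control mean was 1716.6 ± 171.1 (SD, n = 3), and that of the nulls was 980.4 ± 237.3 (SD, n = 3). The null level was 56.4% of control, with a 95% confidence interval of 41.5% to 76.7% before adjustment (log2 change -0.83, SE 0.19). It did not pass (limma adjusted p = 0.0690), nor did it in any of 16 alternative fits (adjusted p from 0.0551 to 0.213). Among the brightest probe sets of the 9 genes, none had a change further below 0.

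Cck encodes cholecystokinin of the I cells, which drives gallbladder contraction and pancreatic enzyme release. Its intensity was 1634.9, 1734.6 and 1153.0 in controls and 1346.4, 1120.1 and 956.8 in nulls. The groups overlapped, because the female control lay below null replicate 1. The log2 change was -0.39 (SE 0.19, limma adjusted p = 0.349), with an interval of -0.84 to 0.06.

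Sct encodes secretin of the S cells, which stimulates bicarbonate secretion by the pancreas and bile ducts. Its 2 bright probe sets were made from the same transcript record and differed. The brighter read 4268.0, 3397.6 and 3818.7 in controls and 3530.3, 3580.8 and 2835.6 in nulls, so that the groups overlapped (log2 change -0.21, SE 0.14, adjusted p = 0.498). The other read 3246.8, 3028.4 and 3152.2 in controls and 2409.9, 2565.9 and 2396.6 in nulls. There the groups were apart and the spread within them small, and the test was not passed (log2 change -0.35, SE 0.10, adjusted p = 0.122). Both names mark possible cross-hybridization, and the remaining Sct probe set, at most 70.4, was too dim to be tested.

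Sst encodes somatostatin of the D cells, which restrains the release of the other gut hormones and is also made by enteric neurons. Its intensity was 1563.2, 1054.4 and 1649.4 in the controls and 877.3, 975.5 and 775.6 in the nulls. The nulls were close together, and the lowest control, replicate 2, lay just above them. The null level was 62.8% of control (log2 change -0.67, SE 0.19, limma adjusted p = 0.117). Without control replicate 2, Sst passed at a log2 change of -0.87 (adjusted p = 0.0324), the 1 of 16 alternative fits in which it did. Without any 1 of the other mice the adjusted p was 0.147 to 0.319.

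Gcg encodes proglucagon, from which the L cells of the distal gut cut glucagon-like peptides. Its single probe set was dim, at 119.4, 107.9 and 136.7 in controls and 139.3, 118.0 and 119.7 in nulls, close to the level of 109.7 that the filter asked for. The groups overlapped and the log2 change was 0.05 (SE 0.22, limma adjusted p = 0.935), with an interval of -0.46 to 0.55. With Pyy not named on the array and Gcg dim, hormones of the distal gut were read less well here than those of the proximal gut.

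Tph1 encodes the tryptophan hydroxylase of enterochromaffin cells, the rate-limiting enzyme of serotonin synthesis outside the brain. Its intensity was 140.3, 268.9 and 124.4 in controls and 86.1, 97.0 and 171.7 in nulls. The groups overlapped, and control replicate 2 and null replicate 3 were the high mice. The log2 change was -0.52 (SE 0.36, limma adjusted p = 0.507), and its interval of -1.35 to 0.31 spans larger differences than those of the 4 genes whose groups were apart. Of the 6 arrays, 4 were above the filter level, 3 of them controls. A second Tph1 probe set, between 15.4 and 44.7, was too dim to be tested.

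**Figure D2:**
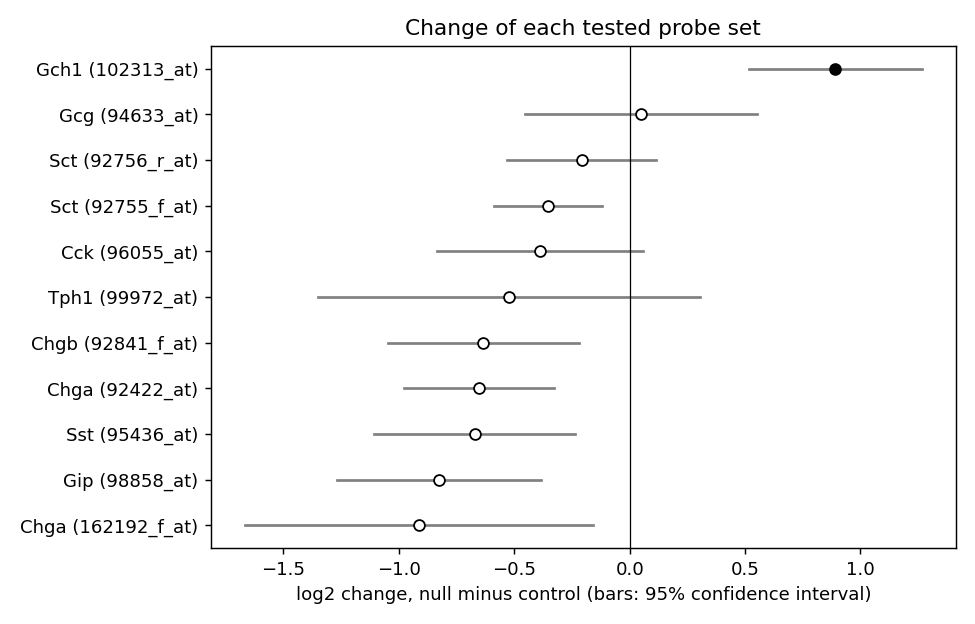
Log2 change, null minus control (x axis), of the 11 tested probe sets of the 9 genes (y axis); bars are 95% confidence intervals before adjustment for the number of probe sets, and the filled point passed at an adjusted p under 0.05. Gch1 alone is filled, at 0.89, and 9 of the 11 probe sets lie below 0.

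Over the 9 genes, each by its brightest tested probe set, 7 had a log2 change below 0 and 2 above. The median was -0.52, beside 0.03 over all probe sets tested, and it was -0.29 without control replicate 2. Of the 9, 1 was called higher (background 1.13%) and 0 lower (background 1.87%). At an unadjusted p under 0.05 there were 4 lower and 1 higher, whereas 8.17% of all probe sets tested were lower and 9.10% higher at that level. All 3 nulls lay below all 3 controls in 4 of the 9, beside a background of 10.8%, and above them in 1, beside 13.1%. Since 3 mice against 3 allow no p under 0.1 in an exact permutation test, the 5 genes with groups apart all had that value (two-sided).

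The null mice differed among themselves. Null replicate 2, the female, was the highest of the nulls in each of Gip, Sst, Chga and Chgb, and the lowest in Gch1. The median over the 9 genes of the log2 deviation from the control mean was -0.40 in this mouse, -0.66 in null replicate 1 and -0.63 in null replicate 3. The same median lay between -0.07 and 0.04 in the controls. With 1 female in each group, a difference between the sexes cannot be told apart from one between animals.

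Other genes of the pathway were read from lists, in which 1 brightest tested probe set stands for each gene. Of 4 further gut hormones and peptides tested, 1 fell and 0 rose. That was Guca2b, uroguanylin, which regulates fluid secretion and is made by several epithelial cell types. It read 8717.8, 9287.9 and 10549.4 in controls and 3685.9, 4463.9 and 3822.7 in nulls. The groups were far apart, with a fall of 2.38-fold (log2 change -1.25, SE 0.13, limma adjusted p = 0.00421). Of 10 genes of granule cargo, prohormone processing and exocytosis, 0 passed, and the median was -0.23. At an unadjusted p under 0.05, 2 were lower and 3 higher. Over all probe sets tested the shares at that level were 8.17% lower and 9.10% higher, which also stand beside such counts in the lists below. The brightest were Gnas, the stimulatory G protein subunit (log2 change -0.09, adjusted p = 0.740), and carboxypeptidase E, Cpe, which trims prohormones. The brighter Cpe probe set read 1031.0, 851.2 and 1026.7 in controls and 1540.4, 1168.1 and 1382.2 in nulls (log2 change 0.48, adjusted p = 0.139). Its nulls lay above its controls, opposite to the chromogranins, whereas a second Cpe probe set had groups that overlapped (log2 change 0.11, adjusted p = 0.778).

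Of 3 genes of serotonin synthesis and removal, 1 fell and 0 rose. Monoamine oxidase A, Maoa, which degrades serotonin, read 8156.2, 10118.9 and 7671.7 in controls and 3744.7, 4903.4 and 3537.4 in nulls. Every null lay below every control, and Maoa fell 2.13-fold (log2 change -1.09, SE 0.16, limma adjusted p = 0.0151). The call was lost when control replicate 1, null replicate 1 or else null replicate 3 was left out (adjusted p from 0.0577 to 0.0822). Besides Gch1, 6 genes that make, recycle or use tetrahydrobiopterin were tested, and 0 passed (median -0.01). The recycling enzyme Qdpr, dihydropteridine reductase, read 2253.8 to 3125.0 in controls and 2244.2 to 3148.4 in nulls (log2 change 0.05, adjusted p = 0.904). Pcbd1, which acts in the same recycling, read 783.5 to 970.9 in controls and 578.8 to 663.8 in nulls (log2 change -0.48, adjusted p = 0.102). At an unadjusted p under 0.05, 1 of these 6 was lower and 0 were higher.

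From the list of enteroendocrine transcription factors 7 were tested: Cdx2, Foxa1, Gata4, Gata6, Hes1, Pax4 and Pdx1. Of these 0 passed, also at an unadjusted p under 0.05 (median 0.27). The brightest were Gata6 (log2 change -0.32, adjusted p = 0.605) and Gata4 (log2 change 0.27, adjusted p = 0.667), which are not particular to this lineage. The lineage factors Neurog3 and Neurod1 were too dim to be tested, at most 15.8 and 54.0. Insm1, Pax6, Isl1, Nkx2-2, Myt1, Foxa2, Atoh1 and Gfi1 were too dim as well. All nulls lay above all controls in Atoh1 (19.1 to 27.0 in controls, 33.6 to 56.8 in nulls). The same held for Gfi1 (47.3 to 56.0 in controls, 68.6 to 90.7 in nulls). In the other untested factors the groups overlapped. At such low intensities the list says little about this lineage. Of 9 receptors of these hormones and of serotonin, 0 passed (median 0.05) and 1 was lower at an unadjusted p under 0.05; the brightest were Sstr4 (log2 change 0.04, adjusted p = 0.902) and Cckbr (log2 change 0.07, adjusted p = 0.824). Of nutrient sensors 2 were tested and 0 passed, also at an unadjusted p under 0.05: the glucose carrier Slc5a1 (log2 change -0.31, adjusted p = 0.372) and the potassium channel subunit Abcc8 (log2 change -0.41, adjusted p = 0.646).

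**Figure D3:**
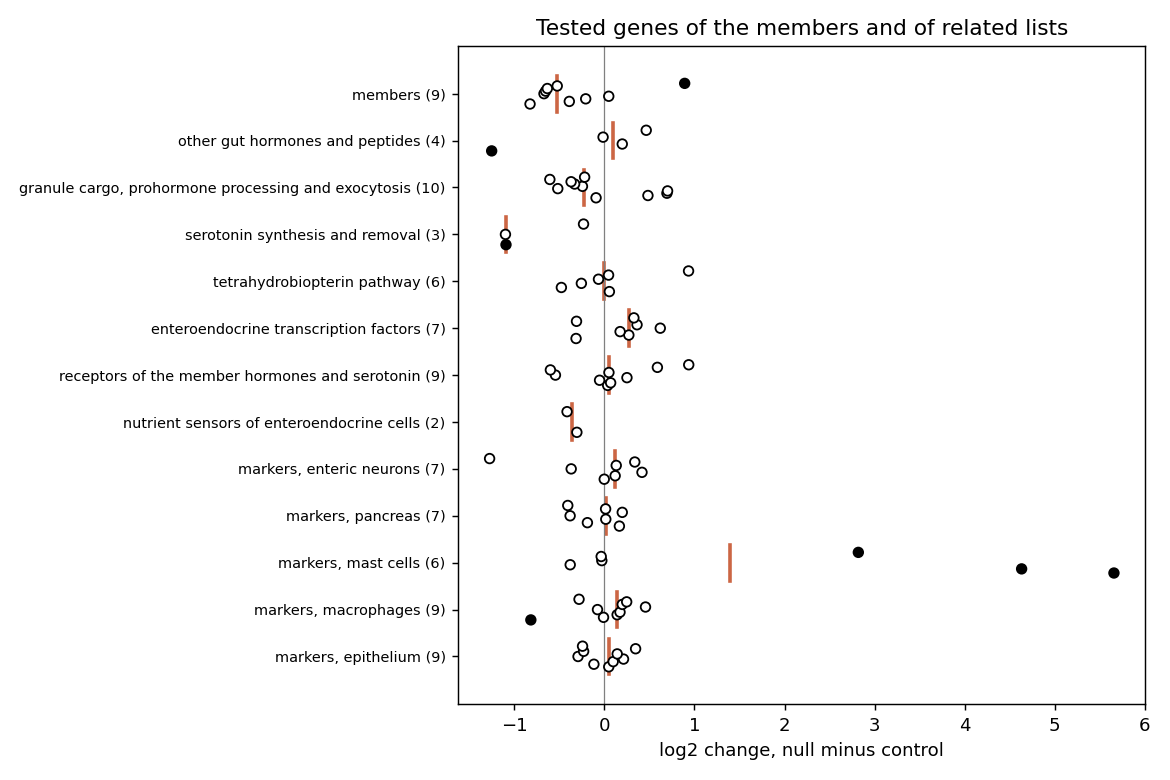
Log2 change, null minus control (x axis), of each tested gene of the 9 members and of the related and marker lists (y axis, number of tested genes in brackets; a gene may stand in 2 lists); filled points passed at an adjusted p under 0.05 and vertical bars are medians. The member median lies at -0.52, and apart from the mast cell list, at 1.40, the marker lists have medians between 0.01 and 0.14. The mast cell genes that passed were tested only because their nulls were high.

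Some members are made by other cells too, so that markers of those cells were read beside them. Enteric neurons make Cck, Sst and chromogranins. Of 16 neuronal markers on the array 7 were tested and 0 passed (1 lower and 1 higher at an unadjusted p under 0.05), with summed intensities of 3727.8 to 4011.3 in controls and 3654.7 to 4409.1 in nulls. The brightest, Tubb3 and Gal, had log2 changes of -0.00 (adjusted p = 0.997) and 0.12 (adjusted p = 0.716). The pancreas makes Sst, Gcg and chromogranins in its islets. Its markers summed to 4990.1 to 5228.5 in controls and 4184.5 to 5908.0 in nulls, with 0 of 7 tested called, also at an unadjusted p under 0.05. The exocrine Clps and Ctrb1 were read at 1756.9 to 2953.1 and 751.3 to 1405.0, and both probe sets of the islet hormone Ins2 were at most 24.1 in every mouse. The islet hormone Ppy, pancreatic polypeptide, was measured on 2 probe sets. The brighter, whose name marks possible cross-hybridization, read 273.2 to 294.2 in controls and 318.4 to 329.1 in nulls (log2 change 0.20, adjusted p = 0.461), and the other 125.5 to 243.3 over all mice with groups that overlapped.

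Mast cells can express Tph1. Of 12 mast cell markers on the array 6 were tested, and 3 rose: Mcpt1, Mcpt2 and Cpa3. Above the filter level were 3 nulls and 0 controls for Cpa3, and 3 nulls and 1 control for Mcpt1 and for Mcpt2. These genes were thus tested only because their nulls were high. Kit, Gata2 and Tpsb2 did not pass, with log2 changes of -0.04, -0.03 and -0.38. With null replicate 1 left out Cpa3 no longer passed (adjusted p = 0.0899), and the same held for null replicate 3 (adjusted p = 0.0892). The summed intensity of the list was 1118.5 to 1203.2 in controls and 4918.4 to 12568.3 in nulls, lowest in nulls in the female. Most of the sum in nulls came from Mcpt1 (2265.2 to 6119.9) and Mcpt2 (1727.6 to 5038.1). Tph1 itself did not pass, and the part of mast cells in its level was not tested. Macrophages can express Gch1. Of their 13 markers on the array 9 were tested, 0 rose and 1 fell: Lyz2, the lysozyme, which was 1.76-fold lower (adjusted p = 0.0437) and lost its call in 10 of 16 alternative fits. At an unadjusted p under 0.05, 1 was lower (Lyz2) and 1 higher (Cd14, log2 change 0.46, adjusted p = 0.122). All nulls lay above all controls in 3 of the 9 (Cd14, Cd68 and C1qc), beside 13.1% of all probe sets tested. They lay below in 2 (Lyz2 and Fcgr1), beside 10.8%. Changes were small in Cd68 (log2 change 0.25, adjusted p = 0.397), C1qc (0.14, adjusted p = 0.575) and Fcgr1 (-0.28, adjusted p = 0.447). The median of the list was 0.14. With Lyz2, its brightest gene, the list summed to 12422.9 to 15022.6 in controls and 11634.3 to 12366.9 in nulls. Without Lyz2 the order was the other way, with 7372.0 to 7580.5 in controls and 7783.3 to 8901.8 in nulls. Every null then lay above every control. Sums of other lists without the brightest gene were apart too, in both directions. For tetrahydrobiopterin genes without Qdpr they were 2765.3 to 2983.3 in controls and 2398.3 to 2740.5 in nulls. Serotonin genes without Maoa also summed lower in nulls. Gut peptides without Guca2b and mast cell markers without Mcpt1 summed higher. The part of macrophages in the level of Gch1 was not tested. Of 9 epithelial markers 0 passed, also at an unadjusted p under 0.05, with sums of 68603.4 to 94608.7 in controls and 81139.1 to 86894.4 in nulls; Lgals4 (log2 change 0.05, adjusted p = 0.877) and Krt20 (log2 change -0.12, adjusted p = 0.653) were the brightest. The median of this list was 0.05.

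The genes whose profile over the 6 mice was most like that of the peptide hormones were sought among 5708 genes. Likeness was Pearson's r of log2 values with the mean standardized profile of Gip, Cck, Sct, Gcg and Sst. The 5 highest were Nacc2 (r = 0.996), Rab17 (r = 0.992), Rab8a (r = 0.982), Syncrip (r = 0.977) and Nae1 (r = 0.976). Their own log2 changes between genotypes were small, from -0.43 to -0.08, and 0 of 5 passed. For Gch1 the most like were Coro1c (r = 0.998), Ciao2a (r = 0.995), Ociad1 (r = 0.994), Myadm (r = 0.99) and Zfp746 (r = 0.989). These had log2 changes from 0.35 to 0.66, and 0 of 5 passed. These were the highest values of r in a search of 5708 genes over 6 points, and they are given as a description. An r over 0.95 was reached by 22 genes with the hormone profile and by 66 with Gch1. The hormone profile itself overlapped between groups, at 0.02 to 0.86 in controls and -1.20 to 0.03 in nulls. The dim Gcg counted in it as much as each other hormone.

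**Figure D4:**
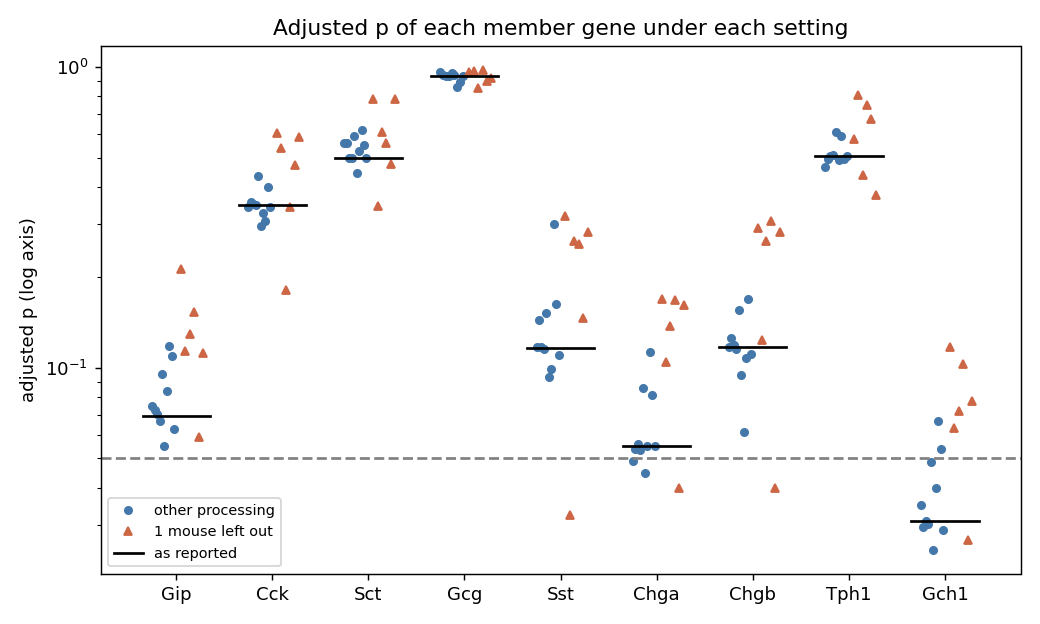
Adjusted p (y axis, log axis) of each of the 9 genes (x axis); the black bar is the value as reported, circles are other processing settings, triangles are fits without 1 mouse, and the dashed line is 0.05. Gch1 lies on both sides of the line, Chga, Chgb and Sst cross it in 3, 1 and 1 fits, and the other 5 genes stay above it.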

How the data were processed

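Total RNA of 6 small intestines was hybridized to 1-colour Affymetrix mouse arrays, per the labels and the platform annotation. The deposited table holds 1 intensity per probe set and array, not on a log scale. Equal trimmed means show that it had been scaled; the software behind it was not given in the sources used here. Of 12488 probe sets, 66 control ones were left out; 10833 of the others had 1 gene symbol, 10817 of them found in RefSeq by Entrez identifier. Values were turned into log2(intensity + 12), 12 being the 10th percentile of positive values, which understates changes of dim genes. Probe sets above 109.7 (the 40th percentile) in at least 3 arrays were tested with limma (version 3.58.1, R 4.3.3; eBayes with a variance trend), two-sided. The fit was tested on simulated data. Groups came from the labels; replicate numbers follow accession order and pair nothing. Detection calls were not used here.

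The members and lists were chosen with earlier results of these data known. Named were all members, in each list the genes past the threshold or else the 2 brightest, and the 5 genes most like the hormones and Gch1. Chosen after their values were seen were Neurog3, Neurod1, the further transcription factors named, Kit, Gata2, Tpsb2, Ins2, Ppy, Cd14, Cd68, C1qc and Fcgr1. So were the list sums without the brightest gene and the genes under other observations. A letter (s, f, r, i, g, x) standing before _at in a name was read as marking possible cross-hybridization. Alternatives were quantile normalization, equal medians, pseudocounts of 3 and 48, no filter, a filter at 288.7, males only, a term for sex, eBayes without trend or robust, the mean of a gene's probe sets, and leaving out each mouse.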

Additional observations from a re-analysis of the deposited data

Results flagged for a closer look

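Gcg differed in direction between the sexes. In males the nulls read 139.3 and 119.7 and the controls 119.4 and 107.9 (mean log2 change 0.17). The lower male null was thus almost level with the higher male control. In females the null mouse lay below the control (log2 change -0.19), a gap of 0.36 between the sexes. The difference was not tested, 1 female per group was measured, and the intensities, from 107.9 to 139.3, lie near the filter level.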

How the results depend on the processing

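No paired analysis was possible because the labels give no replicate numbers. The median over the member genes stayed below 0 in every alternative run; the stricter filter tested 7 of the 9 genes, without Gcg and Tph1. The count of member genes called higher, 1, was 0 with males only and without a variance trend, and 0 to 1 when 1 mouse was left out; these fits have fewer samples or another variance estimate. The count called lower, 0, was 1 with quantile normalization and 1 with the stricter filter (Chga in both), and 0 to 2 without 1 mouse. Probe sets called higher, 86, were 50 with males only and 49 without a trend, and 17 to 68 without 1 mouse; those called lower, 142, were 85, 92 and 35 to 117. Genes of the related lists called lower, 3, were 1 to 3 without 1 mouse. The log2 change of Gcg ranged from -0.025 to 0.13 without 1 mouse, turning below 0 without control replicate 2 or null replicate 1; the cause was not tested. Gip, Cck, Sct and Tph1 did not pass in any fit. Intensity limits what Gcg and Tph1 can show, both near the filter level.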

Other observations

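Other genes of the lists, which held 2 to 10 tested genes each, had groups apart without passing. Of these genes 9 had all nulls below all controls and 8 had all nulls above. Over all probe sets tested, called or not, the shares were 10.8% below and 13.1% above. The counts leave out called genes, so that they and these shares are not like measures. Those named here were picked after their values were seen. Ddc, which makes serotonin from the product of Tph1, read 2548.2, 4891.5 and 1606.1 in controls and 1011.6, 1394.1 and 1424.5 in nulls (log2 change -1.10, adjusted p = 0.171); control replicate 2 was the highest in Ddc and in Tph1. Secretogranin II, Scg2, a granule protein related to the chromogranins, read 194.2, 159.4 and 213.3 in controls and 129.5, 122.1 and 106.9 in nulls (log2 change -0.61, adjusted p = 0.172). Vamp2, a vesicle fusion protein, had a control mean of 597.9 ± 50.7 (SD, n = 3) and a null mean of 416.0 ± 62.7 (SD, n = 3) (log2 change -0.52, limma adjusted p = 0.121). Rab3d, a small GTPase of secretory granules, lay the other way, at 342.9 to 466.3 in controls and 486.2 to 811.7 in nulls (log2 change 0.70, adjusted p = 0.136). Calb2, calretinin, among the neuronal markers, read 126.5 to 186.9 in controls and 45.3 to 92.0 in nulls (log2 change -1.27, adjusted p = 0.0923). Above the filter level were 3 controls and 0 nulls, so that Calb2 was tested only through its controls. Npy, neuropeptide Y, of the same list lay the other way, at 245.4 to 298.4 in controls and 314.4 to 437.6 in nulls (log2 change 0.42, adjusted p = 0.249). Among the further gut peptides Tac1, the substance P precursor, also lay higher in nulls, at 124.8 to 140.4 in controls and 164.0 to 211.9 in nulls (log2 change 0.46, adjusted p = 0.259). The rest that lay higher were Cpe, Cd14, Cd68, C1qc and Ppy, and the rest that lay lower were Pcbd1, Htr4, Cela2a, Fcgr1 and Resp18.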
